A study of Mus musculus with 7 samples.

Results

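The Hox genes encode homeodomain transcription factors that mark position along the head-to-tail axis, and they were taken as the probe sets that name a single gene with a symbol of the form Hoxa, Hoxb, Hoxc or Hoxd and a number. Of the 18193 genes represented on the arrays 33 were such Hox genes, and each was read from its brightest probe set, by the mean of the 7 arrays. Other Hox genes are not analysed here, and 3 probe sets that name several Hox genes were not used.

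The RNA was that of 7 terminal ileum samples, each from a male C57BL6J mouse aged 8 weeks. The penicillin group was 4 mice that had received penicillin at 6.7 mg/L since birth, and the control group was 3 mice that had received no antibiotic. Mice of both groups were weaned at 4 weeks and switched at 6 weeks to food in which fat supplied 45% of the energy. The labels call the arrays biological replicates, their litter and cage are not among the sample details used here, and their growth text speaks of livers although the tissue label is terminal ileum. Of 6 ileum markers, 5 were above a background threshold, defined with the levels, in every mouse.

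The arrays resembled each other, with correlations of 0.9919 to 0.998 over 45101 probe sets and medians of 5.427 to 5.452. Control replicate 3 stood apart. The first principal component, 48% of the variance, put it at -30, with penicillin replicates 1 to 4 at -0.1, 6.6, 17.6 and 5.9 and control replicates 1 and 2 at -2.9 and 2.8.

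Mammalian Hox genes lie in clusters, named a to d, and genes of different clusters that descend from the same ancestral gene share a number and form a paralogue group, from 1 to 13. Within a cluster the order of the genes follows the order in which they are used along the body, low numbers towards the head and high numbers towards the tail. In the gut, Hox genes are known mainly from the mesenchyme and muscle that surround the epithelium, where genes of the highest groups mark the hindgut. Hox proteins bind DNA with partners of the TALE family (Pbx and Meis proteins), and the Cdx proteins of the gut epithelium belong to a related family of position genes.

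Levels are log2 values from RMA, which brings the arrays to a common distribution after a background correction and condenses each probe set to a single number. It gives no detection call. As a yardstick, background on each array was set at the 95th percentile of 69 olfactory and vomeronasal receptor genes, which the intestine is not known to use. That threshold lay between 5.19 and 5.44 on the 7 arrays. Probe sets differ in how strongly they bind, so a level can be set against this threshold and against the same gene in another mouse, but not against another gene as an amount. In whole tissue, fewer cells that use a gene and less RNA per cell cannot be told apart.

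The ileum showed a band of Hox genes with an edge at group 9. On all 7 arrays 14 of the 33 Hox genes (42.4%) were above background, against 63.6% of all 18193 genes. All 14 belonged to groups 2 to 9. In groups 10 to 13, 0 of 10 genes were above background on any array, and in group 1 the same held for both genes measured. A further 3 genes, Hoxa3, Hoxa9 and Hoxd9, were above it on some arrays, and the remaining 16 on none. In penicillin and in control mice alike, Hoxb9 and Hoxc9 were above background in every mouse and no gene of groups 10 to 13 was. Hoxa9 was above it only in penicillin replicate 1 and control replicate 3, and Hoxd9 in every mouse but control replicate 2.

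**Figure D1:**
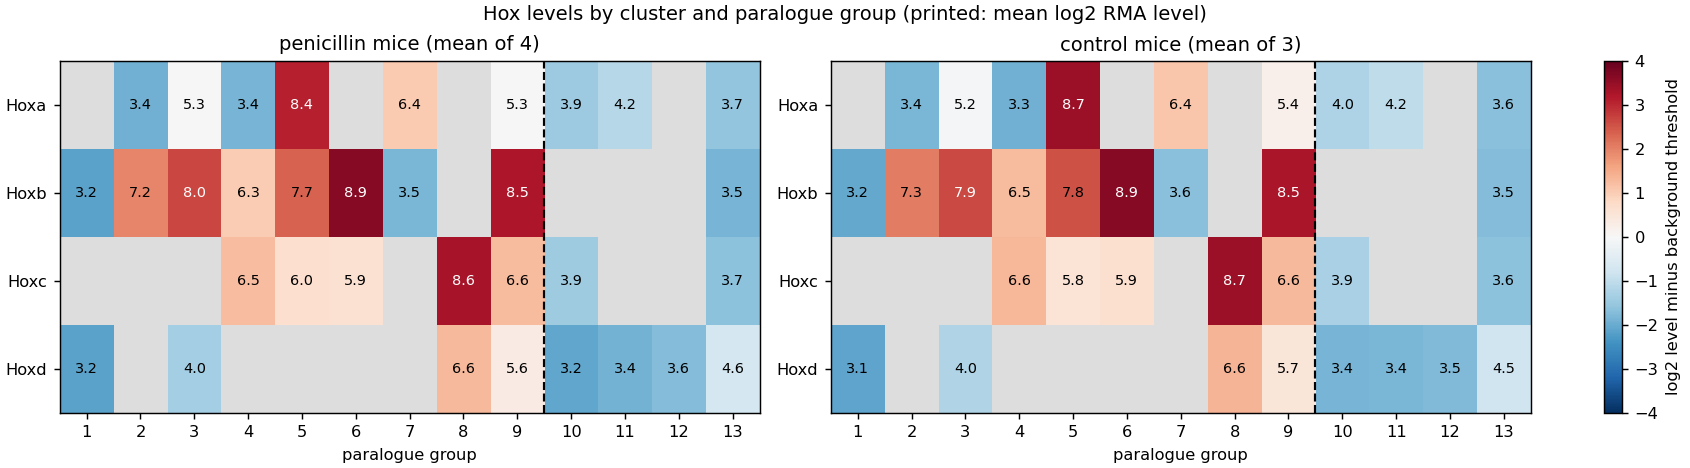
Mean log2 level of each Hox gene by cluster (rows) and paralogue group (columns) in the 4 penicillin mice (left) and the 3 control mice (right). Colour gives the level minus the mean background threshold of those mice. Grey marks positions with no gene analysed here, including those where RefSeq lists no Hox gene. Right of the dashed line, from group 10 on, every cell is below the threshold in both panels.

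In clusters b and c the edge fell between direct neighbours in every mouse. In cluster d it did so in every mouse but control replicate 2. In cluster a, by the brightest probe set of Hoxa9, it did so only in penicillin replicate 1 and control replicate 3. Hoxa9 and Hoxa10, Hoxc9 and Hoxc10, and Hoxd9 and Hoxd10 adjoin each other in the RefSeq gene order, as do Hoxb9 and Hoxb13. The group 9 gene of these pairs was above the threshold on 2 arrays (Hoxa9), 7 (Hoxb9), 7 (Hoxc9) and 6 (Hoxd9), and its neighbour from the tail side on 0. Printed here are the promoters of Hoxa9 and Hoxd9, which varied most between mice, and of their neighbours Hoxa10 and Hoxd10, which stayed under the threshold. Each is the 250 bases before an annotated start, from RefSeq in build GRCm38.p6, read 5′ to 3′ along the gene. Hoxa10 has 2 starts. Capitals mark TTTAT, the core known for Cdx and for Hox proteins of the high groups, and TAAT, the general homeodomain core, on either strand.
Hoxa9, chr6:52227371-52227620, minus strand: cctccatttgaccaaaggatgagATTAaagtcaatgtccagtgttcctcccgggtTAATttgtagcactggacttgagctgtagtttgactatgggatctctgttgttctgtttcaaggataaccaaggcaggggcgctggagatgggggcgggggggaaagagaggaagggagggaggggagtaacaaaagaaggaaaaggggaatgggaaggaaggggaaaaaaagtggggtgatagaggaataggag
Hoxa10, chr6:52240855-52241104, minus strand: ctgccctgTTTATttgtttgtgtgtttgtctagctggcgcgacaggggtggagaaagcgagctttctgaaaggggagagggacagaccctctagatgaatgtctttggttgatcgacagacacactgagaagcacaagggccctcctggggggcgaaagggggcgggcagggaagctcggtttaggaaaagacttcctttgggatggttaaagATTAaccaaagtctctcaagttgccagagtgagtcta
Hoxa10, chr6:52234940-52235189, minus strand: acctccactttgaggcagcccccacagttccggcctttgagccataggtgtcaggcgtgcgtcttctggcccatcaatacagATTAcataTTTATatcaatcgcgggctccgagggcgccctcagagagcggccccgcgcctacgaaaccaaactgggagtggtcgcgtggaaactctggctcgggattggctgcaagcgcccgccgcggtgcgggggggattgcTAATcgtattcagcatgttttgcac
Hoxd9, chr2:74697513-74697762, plus strand: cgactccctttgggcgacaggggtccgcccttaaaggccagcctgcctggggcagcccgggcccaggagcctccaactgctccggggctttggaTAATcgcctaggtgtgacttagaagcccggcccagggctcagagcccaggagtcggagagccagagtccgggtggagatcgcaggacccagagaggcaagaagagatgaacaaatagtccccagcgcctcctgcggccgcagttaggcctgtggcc
Hoxd10, chr2:74691641-74691890, plus strand: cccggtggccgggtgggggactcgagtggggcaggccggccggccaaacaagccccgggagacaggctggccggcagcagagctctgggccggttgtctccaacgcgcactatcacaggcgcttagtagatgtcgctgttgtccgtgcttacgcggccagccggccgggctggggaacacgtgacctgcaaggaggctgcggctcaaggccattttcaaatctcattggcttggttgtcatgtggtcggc

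In these windows TTTAT or its reverse complement was absent from Hoxa9, Hoxd9 and Hoxd10 and present once in each Hoxa10 window, while 37.3% of the 32851 windows of all genes hold it. TAAT or its reverse complement stood at 2 places in Hoxa9 and 1 place in Hoxd9, at 1 and 2 places in the upper and the lower Hoxa10 window, and at 0 in Hoxd10, and 54.9% of all windows hold it. The pair of letters CG occurred 3 times before Hoxa9 and 13 times before Hoxd9, and 7, 20 and 20 times before the upper Hoxa10 start, the lower Hoxa10 start and Hoxd10, against a median of 6 over all windows. The windows of 19 Hox genes were given, 21 in all, with a median of 13 CG pairs. A match of letters is a description of the window and not a binding site.

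Among the head-end groups, Hoxb1, known from the hindbrain, lay between 2.99 and 3.47 and Hoxd1 between 3.0 and 3.35 over the 7 mice. Hoxa2, which patterns the hindbrain and the arches of the face, had 3.4, 3.4, 3.36 and 3.4 in penicillin mice and 3.42, 3.49 and 3.4 in control mice. These 3 genes were far below the threshold in every mouse. Hoxb2 was above it in all, at 7.31, 7.34, 7.13 and 7.21 in penicillin mice against 7.38, 7.21 and 7.33 in control mice.

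In group 3 the clusters split. Hoxb3 had 7.85, 7.91, 8.09 and 8.12 in penicillin mice and 7.82, 7.83 and 8.05 in control mice, and the groups overlapped. Hoxa3, needed for the thymus and parathyroid in mouse, sat at the threshold, with 5.27, 5.33, 5.32 and 5.29 in penicillin mice and 5.24, 5.03 and 5.33 in control mice. Its difference of 0.10 ± 0.076 (SE) did not pass in limma (adjusted p = 0.605). These values are those of its brightest probe set. Its other sets, with means of 4.6, 4.13 and 3.65, were under the threshold in every mouse. They differed by 0.07, -0.15 and 0.13. Hoxd3 stayed between 3.82 and 4.14. Cluster b, with 6 of 9 genes above background on all arrays, and cluster c, with 5 of 7, held most of the band, while cluster a had 2 of 9 and cluster d 1 of 8. These counts take in all genes measured. Most of those in cluster d belonged to group 1 or groups 10 to 13, where none was above background.

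The middle groups 4 to 8 hold the trunk genes. Hoxa5, needed for the airways and also studied in the gut of mouse, was at 8.58, 8.38, 8.31 and 8.41 in penicillin mice and 8.61, 8.58 and 8.8 in control mice. The groups meet near 8.58. Hoxb5, studied in the neural crest cells that form the enteric nervous system, was at 7.75, 7.74, 7.74 and 7.49 in penicillin mice and 7.88, 7.74 and 7.78 in control mice. Hoxb6 was at 8.95, 9.02, 9.11 and 8.7 in penicillin mice and 8.88, 8.83 and 8.99 in control mice, so its lowest and its highest value both fell in the penicillin group. Hoxc8, known from motor neurons and the thoracic skeleton, was at 8.75, 8.57, 8.52 and 8.56 in penicillin mice and 8.81, 8.44 and 8.78 in control mice.

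Hoxb4, known from blood stem cells, was at 6.21, 6.38, 6.42 and 6.23 in penicillin mice and 6.53, 6.38 and 6.6 in control mice. Hoxc4, a neck-level gene, was at 6.58, 6.54, 6.54 and 6.54 in penicillin mice and 6.7, 6.54 and 6.54 in control mice. Of the 17 Hox genes compared between groups, Hoxa7 varied least, between 6.3 and 6.43 over all mice. Hoxd8 lay between 6.36 and 6.84, its highest values falling in penicillin replicate 1 and control replicate 3. Hoxc5 and Hoxc6 were the members nearest above the threshold, with Hoxc6 at 6.1, 5.87, 5.82 and 5.84 in penicillin mice and 5.89, 5.85 and 5.92 in control mice. With the threshold at the 99th percentile of the receptor genes, 5.65 to 5.95, these were the 2 genes lost, and 12 remained. With the 90th percentile, 4.68 to 4.93, Hoxa3, Hoxa9 and Hoxd9 joined, and 17 were above, again with 0 from groups 10 to 13.

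Not every middle gene was above background. Hoxa4 had 3.4, 3.54, 3.4 and 3.41 in penicillin mice and 3.29, 3.33 and 3.4 in control mice, while its neighbour Hoxa5 was above the threshold in every mouse. Hoxb7 lay between 3.34 and 3.72, although Hoxb6 and Hoxb9 in the same cluster were above the threshold in every mouse. For Hoxa4 both probe sets were below it, and Hoxb7 has a single set of its own. A probe set that binds weakly and a silent gene cannot be told apart in these values.

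**Figure D2:**
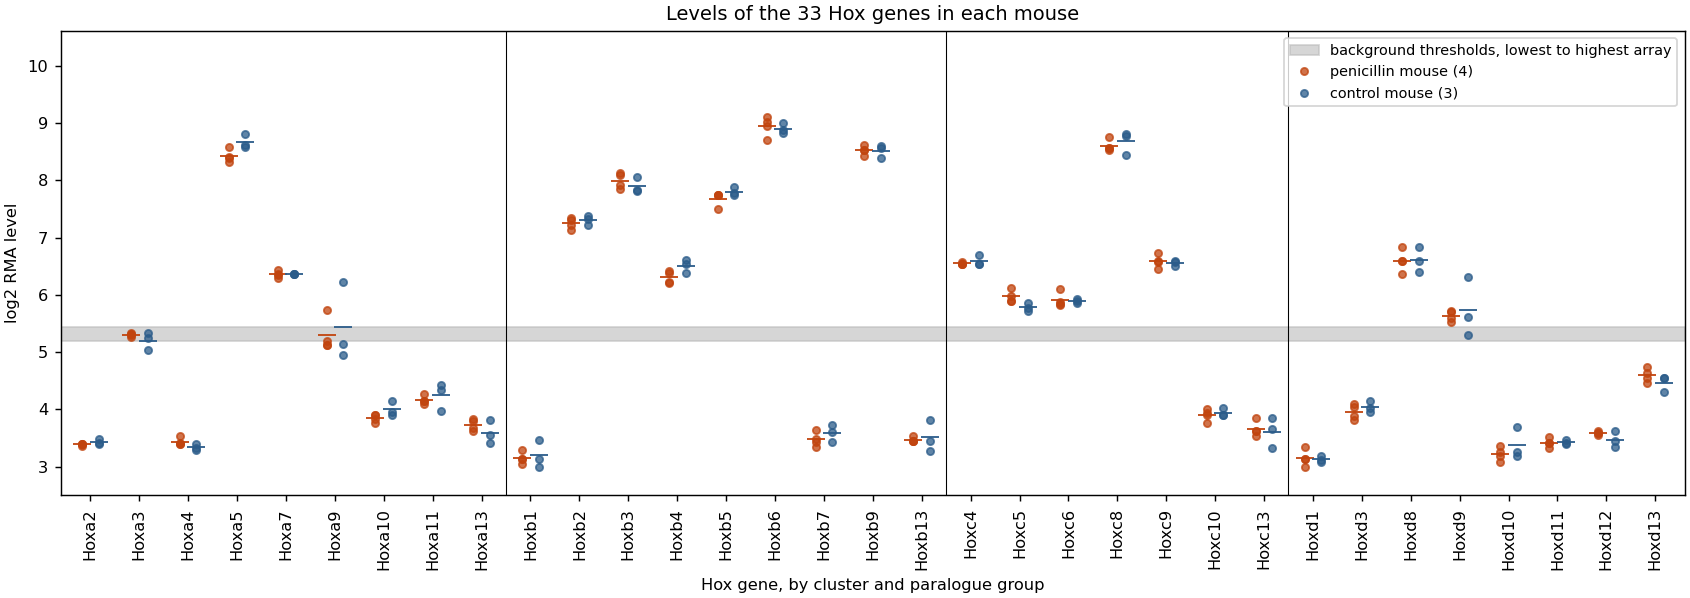
Log2 level of each of the 33 Hox genes in each mouse (points), with penicillin left of control, group means as dashes and the range of the background thresholds as a grey band. Genes numbered 10 to 13 all lie under the band, Hoxa9 reaches from below the band to above it, and Hoxd9 from inside it to above.

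Group 9, the last of the band, is known for thoracic patterning and, in the case of Hoxa9, for blood stem cells. Hoxb9 was at 8.53, 8.62, 8.53 and 8.43 in penicillin mice and 8.59, 8.38 and 8.56 in control mice. Hoxc9 was at 6.73, 6.59, 6.45 and 6.57 in penicillin mice and 6.59, 6.5 and 6.58 in control mice. Both were steady, with penicillin and control values interleaved.

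The other two group 9 genes varied most of the 17 tested. Hoxa9 (gene ID 15405) was at 5.74, 5.13, 5.19 and 5.13 in penicillin mice and 5.15, 4.95 and 6.22 in control mice. In its brightest probe set it was above the threshold in penicillin replicate 1 and control replicate 3 and in no other mouse. Hoxd9 (gene ID 15438) was at 5.71, 5.52, 5.7 and 5.59 in penicillin mice and 5.62, 5.3 and 6.31 in control mice. Control replicate 3 was again the highest, and control replicate 2, at 5.3, was the single value under the threshold.

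From the lowest to the highest array Hoxa9 spanned 1.26 (2.4-fold) and Hoxd9 1.01 (2.02-fold), whereas the other 15 tested Hox genes spanned 0.13 to 0.48 and the median gene 0.33. In control replicate 3 Hoxa9 exceeded the highest other array by 0.48 and Hoxd9 by 0.60. An excess of that size was seen there in 1.08% and 0.579% of all genes tested. That mouse held the highest value of 4 of the 17 tested Hox genes (23.5%), Hoxa5, Hoxa9, Hoxb4 and Hoxd9, against 30.2% of all 13644 genes tested.

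Of 7 colon markers on the array, 3 (Car1, Aqp8 and Ang4) were highest in control replicate 3. Ang4 was at 14.4 in that mouse and at 14.1 to 14.3 in the others, so it was high in all 7 ileum samples. Car1, a carbonic anhydrase of colon enterocytes, was at 10.8, 7.06, 5.11 and 7.63 in penicillin mice and 7.38, 7.3 and 14.1 in control mice. Its highest arrays, control replicate 3 and then penicillin replicate 1, were the highest for Hoxa9 as well, in the same order. Aqp8, a water channel of the colon, was at 4.23, 3.94, 4.08 and 4.06 in penicillin mice and 3.86, 4.29 and 8.27 in control mice. The mean deviation of the 7 colon markers on the array from their own averages was -0.65 to 0.25 in penicillin mice, the 0.25 being penicillin replicate 1. In control mice it was -0.25, -0.18 and 1.38, and 5 of the 7 markers were above background on all arrays. Car1 was the largest part of the 0.25, and the 1.38 of control replicate 3 came mostly from Car1 and Aqp8. The other 4 colon markers were not highest there: B3gnt6 was lowest in control replicate 3, at 5.3 against 5.61 to 5.62 in penicillin mice and 5.79 and 5.68 in the other control mice, Muc4 was highest in control replicate 2, at 7.12, Slc26a3 in penicillin replicates 3 and 4, at 11.6 each, and Aqp4 in penicillin replicate 1, at 8.44. The 6 ileum markers were at -0.12 to 0.33 in penicillin mice and at 0.17, 0.35 and -0.54 in control mice, with control replicate 3 lowest. The 10 proximal small intestine markers, 5 of them above background in every mouse, varied too. They were at -0.15 to 0.22 in penicillin mice and 0.08, 0.08 and -0.18 in control mice. Of these, Lct was at 7.47 in penicillin replicate 3 and 4.36 to 5.11 elsewhere. Fabp1 was at 11.1 in penicillin replicate 4 and 8.4 to 9.52 elsewhere. Fibroblast markers, 8 of 8 above background, were at -0.42 to 0.25 in penicillin mice and -0.18 to 0.28 in control mice, again with control replicate 3 highest and penicillin replicate 1 next. The part of colon or mesenchyme RNA in the Hoxa9 and Hoxd9 values was not tested.

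The probe set of Hoxa9 bears on its value. Its 2 sets had means of 5.36 and 5.33, and in the second the highest array was penicillin replicate 1, at 5.54, with control replicate 3 at 5.34. The 2 sets therefore differ on control replicate 3, and the high value there is that of the chosen set alone. Over the mice the second set ran from 5.16 to 5.54. It was above the threshold also in penicillin replicates 2 and 4 and in control replicate 1. The count of arrays above background and the wide span given for Hoxa9 are thus those of the chosen set. Hoxd9 has 1 set. For Hoxd8 the second set was also highest in control replicate 3, at 6.66 against 6.02 to 6.37 elsewhere.

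**Figure D3:**
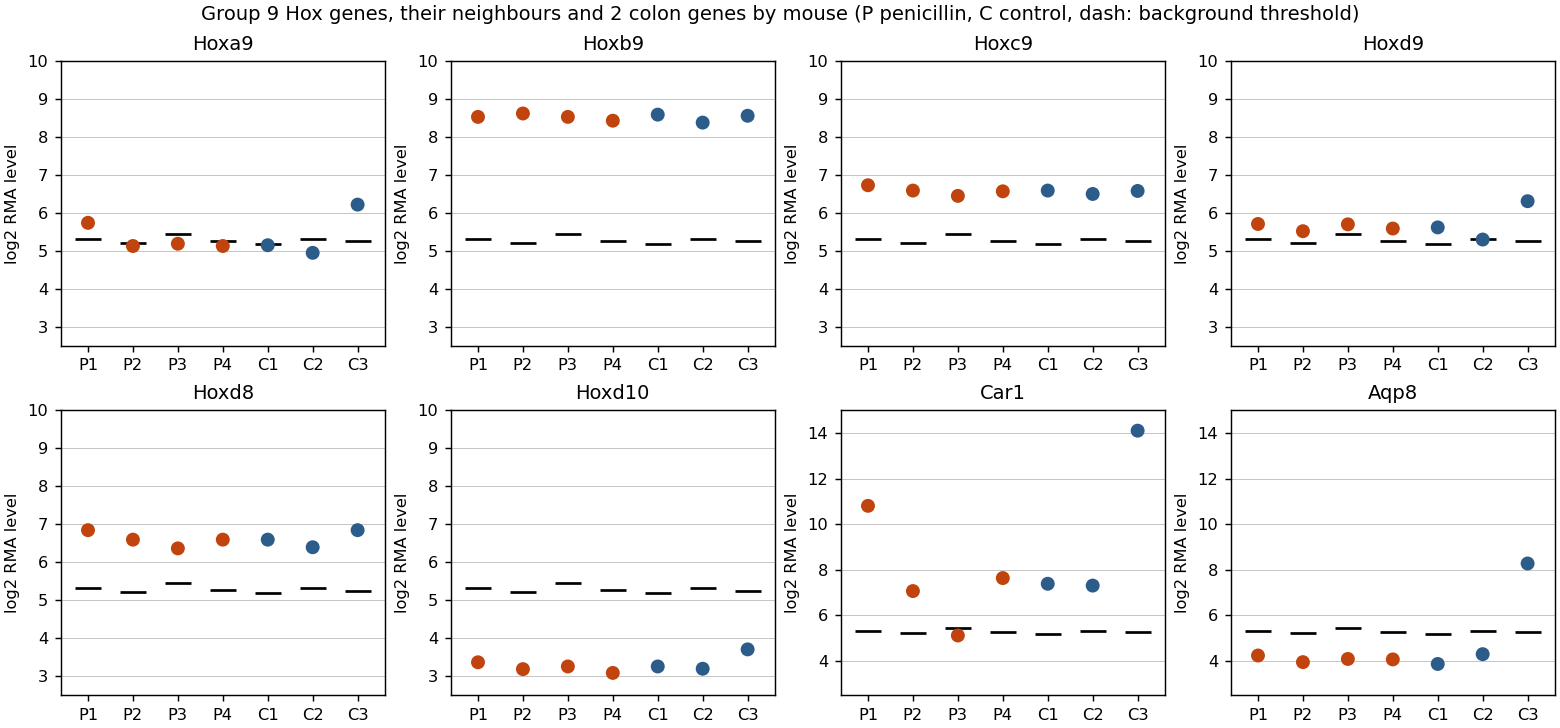
Log2 level in each mouse (penicillin P1 to P4 left, control C1 to C3 right) of the group 9 Hox genes, Hoxd8, Hoxd10 and the colon genes Car1 and Aqp8, with each array's background threshold as a dash (the scale runs to 15 for Car1 and Aqp8). Hoxa9, Hoxd9, Car1 and Aqp8 are highest in C3, at 6.22, 6.31, 14.1 and 8.27, while Hoxb9 and Hoxc9 are level across mice.

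The tail-end groups 10 to 13 stayed under the threshold in every mouse, their means lying between 3.29 and 4.54. Hoxd13, which shapes the digits and the anal sphincter region, came nearest to it, at 4.63, 4.74, 4.46 and 4.54 in penicillin mice and 4.54, 4.54 and 4.3 in control mice. Hoxa13, its hindgut partner, lay between 3.42 and 3.83. Hoxb13, known from the prostate and the tail, was at 3.44, 3.53, 3.44 and 3.44 in penicillin mice and 3.44, 3.81 and 3.28 in control mice. Hoxc13, known from hair and nails, lay between 3.33 and 3.85, and Hoxd12 between 3.34 and 3.63. In control replicate 3 Hoxa13, Hoxb13 and Hoxd13 had their lowest values, 3.42, 3.28 and 4.3. Hoxc13 was at 3.66 in that mouse, and Hoxd12 had its highest value, 3.63. The second probe set of Hoxd13 was lowest in control replicate 1, at 3.09, with control replicate 3 at 3.19.

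Hoxd10, which patterns lumbar motor neurons, was at 3.36, 3.18, 3.25 and 3.08 in penicillin mice and 3.25, 3.19 and 3.7 in control mice, highest in control replicate 3 but far below the threshold. Hoxa10 lay between 3.76 and 4.15 and Hoxc10 between 3.77 and 4.03. Its second set put Hoxa10 at 3.74 in control replicate 3 and at 3.05 to 3.42 elsewhere. Hoxa11, known from limb, kidney and uterus, lay between 3.97 and 4.43, and Hoxd11 between 3.33 and 3.51. Differences of this size near the bottom of the scale cannot be told from background.

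Penicillin and control mice were then compared. Genes with a mean over all arrays at or under the 25th percentile, 4.588, were left out, which kept 17 Hox genes, the 14 above background and Hoxa3, Hoxa9 and Hoxd9. No Hox gene passed in limma at an adjusted p under 0.05 (0 of 17), where 0.0953% of the 13644 genes tested did (12 lower and 1 higher in penicillin mice). Adjusted p for the Hox genes ran from 0.41 to 0.977. At an unadjusted p under 0.05 there were 3 of 17 (17.6%), against 10.7% of all genes tested. Without the filter, which let all 33 be tested, 0 were called and 3 had an unadjusted p under 0.05, against 0.0605% and 9.46% of 18193 genes.

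The 3 were Hoxa5, Hoxb4 and Hoxc5. Hoxa5 (gene ID 15402) averaged 8.42 ± 0.113 in penicillin mice (SD, n = 4) and 8.66 ± 0.12 in control mice (SD, n = 3), a difference of -0.24 ± 0.084 (SE, 1.18-fold lower, limma adjusted p = 0.41). Its second probe set, at a mean of 6.7, differed by -0.13. Hoxb4 (gene ID 15412) averaged 6.31 ± 0.104 in penicillin mice and 6.5 ± 0.113 in control mice, a difference of -0.19 ± 0.079 (SE, limma adjusted p = 0.454). Its second set differed by -0.03.

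Hoxc5 (gene ID 15424) was at 6.12, 5.9, 5.98 and 5.9 in penicillin mice and 5.72, 5.86 and 5.77 in control mice. It was the single tested Hox gene whose groups did not overlap, 5.88% of the 17, where 10.3% of all genes tested had groups apart. Its difference was 0.19 ± 0.072 (SE, 1.14-fold higher, limma adjusted p = 0.424), and its other 2 probe sets, with means of 4.58 and 3.96, differed by 0.00 and 0.03.

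The other members did not pass either. Hoxb5 differed by -0.12 ± 0.079 (SE, limma adjusted p = 0.574) and Hoxb3 by 0.09 ± 0.092 (SE, limma adjusted p = 0.706). With 1 mouse left out, Hoxb5 was at -0.06 without penicillin replicate 4, and Hoxb3 at 0.16 without control replicate 3 and at 0.05 without control replicate 1, control replicate 2 or penicillin replicate 4. Without control replicate 3, Hoxa3 differed by 0.17, Hoxa5 by -0.17, Hoxb4 by -0.14 and Hoxc5 by 0.19. Without control replicate 2, Hoxa3 differed by 0.02. Hoxa9 averaged 5.3 ± 0.294 in penicillin mice and 5.44 ± 0.681 in control mice, and Hoxd9 averaged 5.63 ± 0.091 in penicillin mice and 5.74 ± 0.518 in control mice. Their differences of -0.14 ± 0.30 and -0.11 ± 0.21 (SE, limma adjusted p = 0.862 and 0.842) turned to 0.25 and 0.17 without control replicate 3. Among genes left out by the filter, Hoxb13, Hoxd10 and Hoxd13 differed by -0.04 ± 0.11, -0.16 ± 0.13 and 0.13 ± 0.089 (SE, limma without the filter, adjusted p = 0.904, 0.66 and 0.622), and without control replicate 3 Hoxb13 differed by -0.16, Hoxd10 by -0.00 and Hoxd13 by 0.05.

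**Figure D4:**
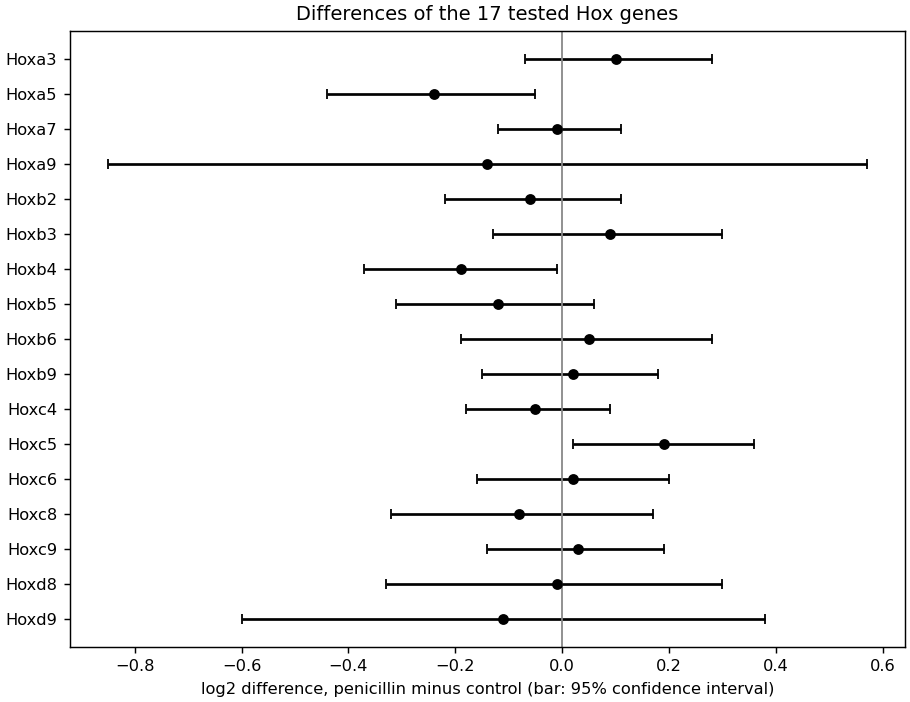
Log2 difference, penicillin minus control, of the 17 tested Hox genes (points) with 95% confidence intervals of the limma fit (bars), not adjusted for the number of genes. The widest intervals are those of Hoxa9, from -0.85 to 0.57, and Hoxd9, from -0.60 to 0.38.

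For the 14 genes above background on all arrays, differences ran from -0.24 to 0.19 and every 95% interval lay between -0.44 and 0.36. The median over the 17 tested Hox genes was -0.013, beside -0.014 over all genes tested, and 10 were lower and 7 higher. The median absolute difference was 0.075 for Hox genes and 0.082 for all genes. Without control replicate 3 the Hox median was 0.037. Over the 14 genes the mean deviation of each mouse from the genes' averages was 0.058, -0.005, -0.039 and -0.059 in penicillin mice and 0.037, -0.068 and 0.075 in control mice, and the groups overlap, with control replicate 3 the highest.

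Partners and regulators of Hox genes were read in the same fit. Of the 72 genes tested in 7 lists, 0 passed in limma at an adjusted p under 0.05 and 6 had an unadjusted p under 0.05, against 0.0953% and 10.7% of all genes tested.

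Of the TALE partners, 8 of 9 were on the array, 5 of them above background in every mouse, and the 7 tested had a median difference of -0.08 (2 higher, 5 lower). Pbx3 differed by -0.20 ± 0.11 (SE) and Meis3, above background on 3 arrays, by 0.12 ± 0.067. Without control replicate 3 the differences were -0.11 for Pbx3 and 0.19 for Meis3. Among Cdx and ParaHox genes, 3 of 6 were tested. Cdx2, the master regulator of the intestinal epithelium, was at 11.6 ± 0.0596 in penicillin mice (SD, n = 4) and 11.5 ± 0.069 in control mice (SD, n = 3), a difference of 0.10 ± 0.058 (SE, limma adjusted p = 0.554). Cdx2 and Cdx1 were the members of that list above background in every mouse.

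Of the genes that lie in or beside the clusters, 7 were tested, with a median of -0.03. Skap2, an adaptor of immune cells beside the Hoxa cluster, was at 8.99, 9.08, 9.06 and 9.13 in penicillin mice and 9.43, 9.5 and 9.34 in control mice. Its groups did not overlap, and its difference of -0.36 ± 0.060 (SE) missed the threshold in limma (adjusted p = 0.108). The nearby Hoxa genes above background differed by -0.24 (Hoxa5) and -0.01 (Hoxa7).

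The Polycomb proteins, which keep Hox genes silent, had 17 of 18 genes above background in every mouse, 8 higher and 10 lower, with a median of -0.05. Phc2 differed by -0.22 ± 0.087 (SE) and Phc3 by -0.11 ± 0.048. The Trithorax and MLL proteins, which keep them active, had 11 of 11 above background, 4 higher and 7 lower, with a median of -0.03. Ash2l was at 9.34, 9.54, 9.43 and 9.29 in penicillin mice and 9.17, 9.08 and 9.16 in control mice, a difference of 0.26 ± 0.070 (SE, limma adjusted p = 0.301) with groups apart. Kmt2a differed by -0.14 ± 0.063 (SE), and by -0.21 without control replicate 3.

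Retinoic acid is a classic inducer of Hox genes at the head end. Of its receptors and enzymes 9 were tested, 5 higher and 4 lower, with a median of 0.00. Aldh1a1, which makes retinoic acid, was at 12.2, 12.4, 12.5 and 12.5 in penicillin mice and 12.2, 12.1 and 11.5 in control mice, a difference of 0.42 ± 0.18 (SE, limma adjusted p = 0.453), with control replicate 3 the lowest. Without that mouse the difference was 0.20. Of the patterning genes of the gut mesenchyme 17 were tested, 12 higher and 5 lower, with a median of 0.04. Fgf9, a growth factor for gut mesenchyme, differed by 0.17 ± 0.064 (SE). Wnt11 differed by 0.15 and was above background on 0 arrays.

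Markers of other cell types were read beside these values. Of 6 immune markers tested, 0 passed and 5 had an unadjusted p under 0.05 in limma, against 10.7% of all genes tested. All 6 were lower in penicillin mice, with a median of -0.44, and the list's mean deviation was -0.36 to -0.02 in penicillin mice and 0.18 to 0.30 in control mice, with 5 of 7 markers above background in every mouse. Of 5 endothelial markers tested, 0 passed, 1 (Emcn) had an unadjusted p under 0.05, and all 5 were lower, with a median of -0.24. Their mean deviation was -0.32 to -0.03 in penicillin mice and -0.01 to 0.31 in control mice, with 4 of 5 above background in every mouse. Enteric neuron and glia markers, 4 of 7 above background, had a median of -0.18 over 6 tested, of which 0 passed, and lay at -0.15 to 0.02 in penicillin mice and -0.05 to 0.21 in control mice. Smooth muscle markers, 8 of 8 above background, had a median of -0.16, with all 8 lower in penicillin mice, and 0 passed. Their mean deviation was -0.38 to 0.12 in penicillin mice and -0.03 to 0.25 in control mice. Epithelial markers, 8 of 8 above background, had a median of 0.08, with all 8 higher in penicillin mice, and 0 passed. Their mean deviation was 0.01 to 0.05 in penicillin mice and -0.14 to 0.02 in control mice. The part of these cell types in the differences of Hoxa5, Hoxb4, Hoxc5 and Skap2 was not tested.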

How the data were processed

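RNA of the terminal ileum of 7 mice (4 penicillin, 3 control) was measured on Affymetrix arrays. The authors deposited log2 values. According to the submitters' processing notes, RMA from affy produced them. Neither software versions nor a build is given in the sources used here. RMA equalises arrays and pulls low values together, and the number of arrays limits the precision.

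Probe sets were named from the platform annotation of 2016. The 34945 that name 1 gene were used, the set with the highest mean over all arrays standing for each gene. Genes with a mean at or under the 25th percentile, 4.588, were left out, and limma 3.58.1 in R 4.3.3 compared the groups over 13644 genes with Benjamini-Hochberg adjustment, called at 0.05. The procedure was tested on simulated data.

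Every Hox gene may be named. Full statistics are given for the 6 smallest p-values, for genes above background on some arrays, and for Hoxb13, Hoxd10 and Hoxd13, which were picked after their values were seen. Each pathway list names up to 2 genes with the smallest p-values. Each marker list may name its 2 brightest genes, Car1 and Aqp8, and the other colon markers, Lct and Fabp1 were named after their values were seen. The Hox genes, lists and tests were chosen with earlier results of these data known. Alternatives changed the normalization, filter, probe set rule, variance prior, array weights, threshold, background and mice.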

Additional observations from a re-analysis of the deposited data

Results flagged for a closer look

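By Dixon's criterion (critical ratio 0.829), 1 penicillin mouse of 4 stood far from the others for 7 of the 35 genes examined. Chance gives about 1 gene in 20 where values are independent and do not repeat. These genes share the same 4 arrays and many repeat values, so that rate is no yardstick here. The control group of 3 was too small for the criterion. Penicillin replicate 1 was highest for Hoxa9 (5.74, next 5.19), Hoxc6 (6.1, next 5.87) and Hoxc4 (6.58, next 6.54). Penicillin replicate 4 was lowest for Hoxb5 (7.49, next 7.74). Below background, penicillin replicate 2 was highest for Hoxa4 (3.54, next 3.41) and Hoxb13 (3.53, next 3.44), and penicillin replicate 3 lowest for Hoxa2 (3.36, next 3.4). The gaps of Hoxa2, Hoxb13 and Hoxc4 lie within groups whose whole range was 0.0435, 0.0833 and 0.0377, and 23 of the 33 Hox genes have a value that repeats between arrays to 6 decimals.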

How the results depend on the processing

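No Hox gene was called in limma under any of the 16 alternatives. The lowest adjusted p was 0.0638, for Hoxc5 with array quality weights. The count over all genes was 13 and moved to 7 with the mean of a gene's probe sets, 774 with array quality weights and 40 at an adjusted p under 0.1. With 1 mouse left out it ran from 0 to 15. The 0 arose when either control replicate 1 or 2, or either penicillin replicate 1 or 4, was dropped. Dropping penicillin replicate 3 gave 2, and dropping control replicate 3 gave 8. Array quality weights also called 5 genes of the pathway lists (Meis3, Skap2, Jarid2, Phc2 and Kmt2a), where the other 15 alternatives called 0. The difference of Hoxa9 turned to 0.09 with array quality weights and to 0.25 without control replicate 3, and that of Hoxd9 to 0.17 without the same mouse. With each mouse left out in turn, Hoxa9 ran from -0.39 to 0.25 and Hoxd9 from -0.33 to 0.17. The cause was not tested. The count of 14 Hox genes above background ran from 12 to 17. Same-numbered arrays deviated with r of -0.164, 0.00297 and -0.416, and differently numbered arrays with r of -0.367 to 0.375. No pairing by replicate number was seen, but so few arrays cannot exclude a shared litter, cage or batch. The fit with the replicate block called 0 genes and 0 Hox genes. RMA values carry no detection call, so differences of genes under the threshold may hold no signal of the gene.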
